A study of Mus musculus with 19 samples.

Results

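The urea cycle and glutamine genes are 10 of the 55416 gene lines of a mouse liver count table. They were chosen by symbol, with earlier results of these data known: Cps1, Otc, Ass1, Asl, Arg1, Nags, Slc25a15, Slc25a13, Glul and Gls2. Each symbol matched 1 Ensembl gene, and all 10 passed the filter on low counts that left 15570 genes for testing. The lowest count of any of them in any library was 2200, and together they took 0.919% to 1.57% of the gene counts of a library. The study sequenced poly(A) RNA from 19 liver samples of C57BL/6 mice in 5 groups and asks how the liver responds to pre-renal azotemia, with and without the cytokine IL-6. Here n counts samples. Non-injected wild-type (WT) mice gave the normal group (n = 4). The mice of the WT vehicle (n = 4) and WT PRA (n = 4) groups were injected into the peritoneum 2 times at an interval of 3 h, with vehicle or with doses of 4 mg of furosemide, a loop diuretic that induces pre-renal azotemia (PRA), a rise of nitrogenous waste in blood from poor kidney perfusion. IL-6-/- mice, called knockout here, received the same vehicle (n = 4) or furosemide (n = 3) injections, and livers of injected mice were taken 6 h after the first injection. No non-injected knockout group was analysed here. The labels used here give neither age nor sex, nor whether replicates are separate animals, so the p-values reflect only the sample-to-sample spread, which could be technical.

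In the urea cycle the liver turns ammonia into urea. In the mitochondrion, Cps1 condenses ammonia and bicarbonate to carbamoyl phosphate, N-acetylglutamate made by Nags switches Cps1 on, and Otc joins carbamoyl phosphate to ornithine to give citrulline. In the cytosol, Ass1 joins citrulline to aspartate, Asl splits the product into arginine and fumarate, and Arg1 splits arginine into urea and ornithine. Slc25a15 carries ornithine into the mitochondrion in exchange for citrulline, and Slc25a13 (citrin) exports the aspartate that Ass1 uses. Gls2, the liver-type glutaminase, releases ammonia from glutamine near the portal vein, while Glul, glutamine synthetase, is made in hepatocytes around the central vein and fixes ammonia that escaped the cycle.

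Depth was 32073865 to 74041441 gene counts per library. Albumin, the leading hepatocyte product, stood at 45660 to 101200 CPM (CPM here is the count scaled to the TMM-adjusted library size) in the 19 libraries. Il6, the targeted gene, had 0 to 4 counts in the 12 WT libraries, 1 to 4 in the knockout vehicle libraries and 3 to 16 in the knockout PRA libraries. Its counts therefore do not check the genotype labels, and genotype is used below as labelled. Kidney markers summed to at most 2.54 CPM in any library, and Aqp2 was at 0 in all. Neutrophil markers summed to 1.44 to 3.13 CPM in the normal and WT vehicle libraries, where Ly6g was at 0, to 11.2 to 12.9 CPM in WT PRA, to 4.58 to 6.26 CPM in knockout vehicle and to 4.18 to 13.7 CPM in knockout PRA. Their part in the results below was not tested. In bulk tissue, fewer cells of a type and less RNA per cell cannot be told apart.

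RefSeq promoter windows, from 250 bases before to 50 after a start site on build GRCm38.p6, were matched for 6 of the 10 genes. They are shown for the 3 genes with a window whose level changed under PRA in at least 1 genotype: Slc25a15, which has 2 annotated starts, Ass1 and Glul. Capitals mark the motif matches listed next.

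Slc25a15, chr8:22398572-22398871, minus strand: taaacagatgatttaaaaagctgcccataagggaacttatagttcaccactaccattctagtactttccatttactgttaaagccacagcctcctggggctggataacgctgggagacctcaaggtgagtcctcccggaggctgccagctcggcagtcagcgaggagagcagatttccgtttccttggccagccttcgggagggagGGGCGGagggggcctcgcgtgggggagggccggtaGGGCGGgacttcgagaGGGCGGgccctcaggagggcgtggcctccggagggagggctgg
Slc25a15, chr8:22398228-22398527, minus strand: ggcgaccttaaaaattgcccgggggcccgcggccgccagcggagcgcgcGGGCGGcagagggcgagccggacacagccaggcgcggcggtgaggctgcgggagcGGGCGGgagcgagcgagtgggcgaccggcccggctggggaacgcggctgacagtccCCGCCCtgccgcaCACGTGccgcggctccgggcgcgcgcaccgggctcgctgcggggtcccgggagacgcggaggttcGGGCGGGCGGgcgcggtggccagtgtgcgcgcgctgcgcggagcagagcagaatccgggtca
Ass1, chr2:31470020-31470319, plus strand: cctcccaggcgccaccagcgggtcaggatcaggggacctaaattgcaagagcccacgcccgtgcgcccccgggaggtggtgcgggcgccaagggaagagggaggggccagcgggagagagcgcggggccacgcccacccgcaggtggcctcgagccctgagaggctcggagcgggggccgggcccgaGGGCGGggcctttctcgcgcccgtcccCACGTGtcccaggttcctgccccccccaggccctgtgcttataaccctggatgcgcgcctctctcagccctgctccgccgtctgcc
Glul, chr1:153899679-153899978, plus strand: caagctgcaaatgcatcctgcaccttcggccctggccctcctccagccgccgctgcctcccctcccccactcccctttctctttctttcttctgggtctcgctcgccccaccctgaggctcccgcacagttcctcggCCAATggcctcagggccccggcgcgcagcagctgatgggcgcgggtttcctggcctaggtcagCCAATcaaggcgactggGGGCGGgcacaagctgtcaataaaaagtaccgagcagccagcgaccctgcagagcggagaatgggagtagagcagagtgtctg

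On both strands, 9 motifs were searched. The CCAAT box, GC box and E-box were added after the windows had been read and a first search had matched little, so their matches are a description only. The GC box GGGCGG was in all 4 windows shown and in 35.7% of the 32851 promoter windows of the same length. It was also in the window of Nags, a gene that edgeR called in no comparison. The E-box CACGTG was in the Ass1 window and the second Slc25a15 window, against 7.15% of all windows. CCAAT, at 37.4% of all windows, was found in Glul at 2 places. Both the E-box and CCAAT were also in the window of Slc25a13, which edgeR called in no comparison either. The 4 windows held no match to the cAMP response element TGACGTCA (1.79% of all windows), its core TGACG (20.8%), the C/EBP motif TTGCNNAA (10.8%), the glucocorticoid response core AGAACA (19%), the TCF/LEF motif CTTTGA (16%) or TATAAA (13.6%). A match is not a shown binding site, and no match says only that these letters are not in the window.

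**Figure D1:**
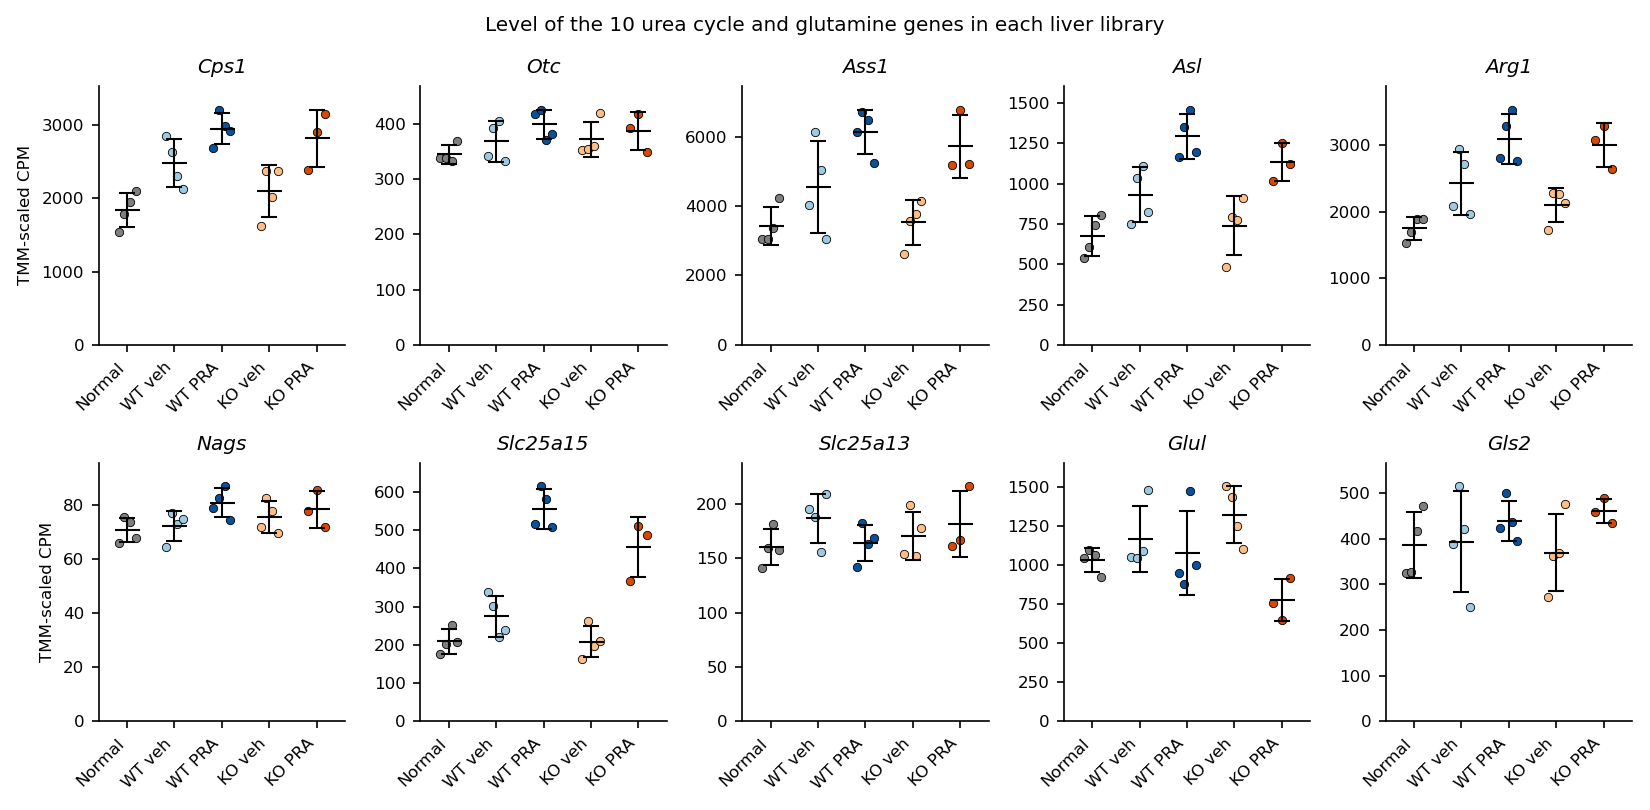
TMM-scaled CPM (y axis, from 0) of each of the 10 genes in each library, by group (x axis); points are libraries, the dash and bars are the group mean ± SD. Slc25a15 shows PRA libraries above all vehicle libraries in both genotypes (508 to 616 against 220 to 337 CPM in WT), and Glul is lowest in knockout PRA, at 651 to 921 CPM.

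Among the 10 genes, Ass1 and Arg1 were the most abundant per kb of transcript and Nags the least. In the normal livers, and per kb of the main transcript of the GENCODE annotation, Ass1 stood at 2016 ± 327 CPM per kb (SD, n = 4) and Arg1 at 1187 ± 116. Glul (370 ± 27.8), Cps1 (331.8 ± 42.7) and Asl (279.2 ± 51.2 CPM per kb) followed, and Glul and Cps1 did not differ by more than their spread. Gls2 (149.8 ± 27.9) and Otc (148.4 ± 7.1 CPM per kb) also lay within their spread of each other, as did Slc25a15 (60.93 ± 9.38) and Slc25a13 (51.26 ± 5.29). Nags, whose product only regulates the cycle, stood at 34.94 ± 2.27 CPM per kb. With all annotated exons counted as length, Cps1 (331.8) came before Glul (310.9) and Slc25a13 (42.12) before Slc25a15 (37.13 CPM per kb). In WT PRA, Slc25a15 (161.9 ± 15.2) and Otc (171.9 ± 11.6 CPM per kb of main transcript) lay within their spread of each other, and Slc25a13 stood at 52.59 ± 5.39. Per kb of all exons the order of the first pair turned, with Slc25a15 at 98.63 ± 9.26 and Otc at 93.99 ± 6.34 CPM per kb, again within their spread.

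In WT mice, PRA was accompanied by higher transcript levels of the ornithine carrier and of argininosuccinate lyase. Slc25a15 was at 337, 302, 220 and 239 CPM in the 4 WT vehicle libraries and at 515, 616, 581 and 508 CPM in the 4 WT PRA libraries. All 4 PRA libraries were above all vehicle libraries. The log2 fold change was 1.02 ± 0.16 (SE of the fit), a 2.02-fold difference, with an adjusted p of 8.11e-05 (edgeR's quasi-likelihood test, Benjamini-Hochberg over all genes tested; the threshold is 0.05). Asl was at 751, 1036, 1110 and 826 CPM under vehicle and at 1164, 1350, 1460 and 1199 CPM under PRA. Its groups did not overlap either, but the lowest PRA library and the highest vehicle library were close. Its log2 fold change was 0.47 ± 0.17, with an adjusted p of 0.0493 that did not hold in 7 of the 8 fits without 1 library of these groups (adjusted p 0.0317 to 0.129 over the 8). Thus 2 of the 10 genes rose and 0 fell, where 22.1% of all genes tested were called in either direction and 9.74% were called higher. Their median log2 fold change was 0.20, against -0.03 over all genes tested.

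The other enzymes of the cycle did not pass the test in WT mice. Ass1 was at 4025, 6122, 5039 and 3043 CPM under vehicle and at 6132, 6701, 6474 and 5246 CPM under PRA, with a log2 fold change of 0.43 ± 0.18 and an adjusted p of 0.0922. The vehicle libraries spanned from 3043 to 6122 CPM, and 1 of them lay above the lowest PRA library. Arg1 was at 2092, 2944, 2717 and 1963 CPM under vehicle and at 2814, 3288, 3540 and 2764 CPM under PRA, with 0.35 ± 0.13 and an adjusted p of 0.0634. Cps1, with a log2 fold change of 0.25 ± 0.13, had an adjusted p of 0.188. The values of Otc (0.12 ± 0.09), Nags (0.16 ± 0.08), Slc25a13 (-0.19 ± 0.12), Glul (-0.12 ± 0.16) and Gls2 (0.16 ± 0.18) had adjusted p-values of 0.186 to 0.632. WT vehicle replicate 4 stood apart in the glutamine genes, with the lowest Gls2 of all libraries (249 CPM) and the highest Glul of its group (1482 CPM). It also had the lowest periportal marker sum of its group (5420 CPM, against 6820 to 7320) and the highest pericentral sum of all libraries (12300 CPM). Without it the differences of Glul and Gls2 were 0.02 and -0.01.

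In knockout mice, PRA was accompanied by higher levels of 5 of the 10 genes and a lower level of Glul. Slc25a15 was at 164, 263, 198 and 209 CPM under vehicle and at 366, 512 and 488 CPM under PRA, a log2 fold change of 1.13 ± 0.17 (2.18-fold, adjusted p = 7.84e-05). No PRA library reached down to the vehicle range. Of the cytosolic enzymes, Ass1 was at 2613, 3571, 3773 and 4157 CPM under vehicle and at 5188, 6762 and 5195 CPM under PRA, a log2 fold change of 0.70 ± 0.19 (adjusted p = 0.0166). Asl was at 480, 795, 774 and 912 against 1018, 1255 and 1125 CPM, a log2 fold change of 0.61 ± 0.18 (adjusted p = 0.0242). For all of these genes the groups did not overlap. Arg1 was at 1734, 2286, 2270 and 2134 against 3086, 3295 and 2643 CPM, a log2 fold change of 0.51 ± 0.14 (adjusted p = 0.0173). Cps1, the entry enzyme of the cycle, was at 1626, 2376, 2024 and 2381 against 2389, 2913 and 3160 CPM, a log2 fold change of 0.42 ± 0.14 (adjusted p = 0.0447). The lowest Cps1 value under PRA exceeded the highest under vehicle by less than the SD of either group.

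In knockout vehicle livers Glul stood at 1507, 1434, 1249 and 1103 CPM, and under PRA at 760, 651 and 921 CPM. All 3 PRA libraries were below all 4 vehicle libraries, and the log2 fold change was -0.77 ± 0.17 (0.588-fold, adjusted p = 0.00369). Gls2, which acts in the opposite direction on glutamine, was at 272, 362, 368 and 476 against 459, 488 and 435 CPM, with 0.32 ± 0.20 and an adjusted p of 0.293. Otc (0.06 ± 0.10), Nags (0.05 ± 0.09) and Slc25a13 (0.09 ± 0.13) had adjusted p-values of 0.683 to 0.754. In all, 5 of 10 genes rose and 1 fell, where 16.3% of all genes tested were called in either direction, 7.96% higher and 8.38% lower. The median log2 fold change of the 10 was 0.37, against 0 over all genes.

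The knockout calls for the enzymes were lost in some of the fits without 1 library, while those for Slc25a15 and Glul were kept. The fold changes of the enzymes kept their direction in these fits. On the log2 scale they were 0.55 to 0.78 for Ass1, 0.45 to 0.73 for Asl, 0.43 to 0.6 for Arg1 and 0.32 to 0.54 for Cps1. Knockout vehicle replicate 1 was the lowest of its group in Cps1, Ass1, Asl, Arg1 and Slc25a15, and without it the 6 genes called became 2, Slc25a15 and Glul. The same count, 2, was left without knockout PRA replicate 2, the highest PRA library in Ass1, Asl, Arg1 and Slc25a15. Cps1 also lost its call without knockout vehicle replicate 3 (adjusted p = 0.0942) or knockout PRA replicate 3 (0.168), and Asl without the latter (0.0575). Slc25a15 kept its call in both genotypes, and Glul in the knockout, in all alternatives run.

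**Figure D2:**
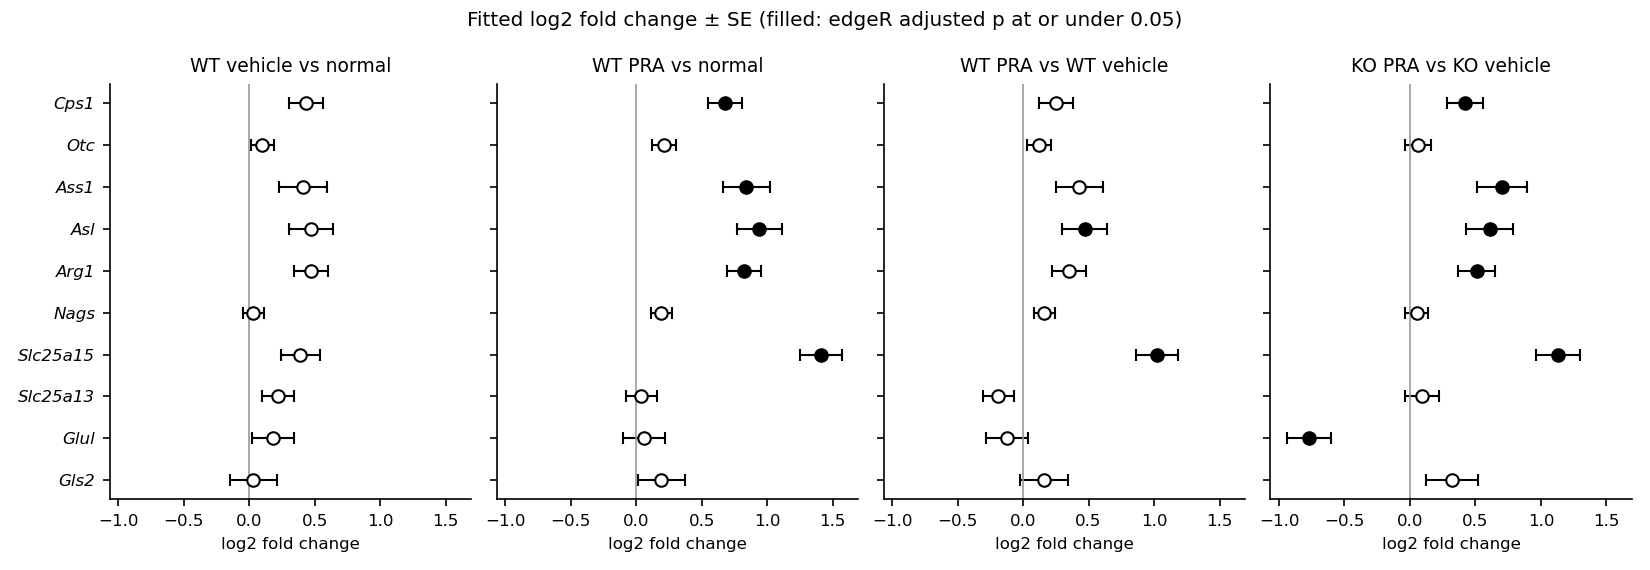
Fitted log2 fold change (x axis) ± SE of each of the 10 genes in 4 comparisons, filled where edgeR's adjusted p was at or under 0.05. Slc25a15 was at 1.02 in WT and 1.13 in the knockout, and Glul at -0.12 and -0.77.

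The interaction test, the knockout response minus the WT response, asks whether PRA acted differently without IL-6. It called 0 of the 10 genes, where 0.475% of all genes tested were called, and DESeq2 and limma-voom with sample weights also called 0. At an unadjusted p under 0.05, 1 gene of the 10 passed in edgeR, against 1392 of all 15570 genes tested. This was Glul, with a difference of -0.65 ± 0.23 (interval of 2 SE from -1.11 to -0.19, not adjusted for the genes tested) and an adjusted p of 0.328. So the drop of Glul seen in the knockout was not shown to differ from the WT value. For Slc25a15 the difference was 0.11 ± 0.23, with an interval of 2 SE from -0.34 to 0.56. For the 5 enzymes Cps1, Otc, Ass1, Asl and Arg1 the differences ran from -0.06 to 0.27, and the interval of Ass1 was -0.26 to 0.79.

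Between genotypes, none of the 10 genes passed the test within a treatment. Under PRA, knockout against WT called 0 of 10 genes by edgeR, DESeq2 and limma-voom with sample weights, against 3.8% of all genes tested. Glul again had the smallest p of the 10, with a log2 difference of -0.47 ± 0.17 and an adjusted p of 0.141. It alone of the 10 passed at an unadjusted p under 0.05, as did 2540 of all 15570 genes tested. Its knockout PRA libraries, at 651 to 921 CPM, overlapped the WT PRA libraries, at 881 to 1475 CPM. Under vehicle, 0 of 10 genes were called by the same 3 tools, against 0.0706% of all genes. Slc25a15 was the single gene of the 10 with an unadjusted p under 0.05 there, at -0.40 ± 0.15 (adjusted p = 0.697). Of all 15570 genes tested, 933 passed at that level. The differences of Ass1 (-0.37 ± 0.18) and Asl (-0.33 ± 0.17) had adjusted p-values of 0.852 and 0.867.

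WT vehicle mice were injected and normal mice were not, and the labels used here give no harvest time for the normal group. Between these groups edgeR called 0 of the 10 genes, against 2% of all genes tested. All 10 log2 fold changes were above 0, from 0.03 to 0.47, with a median of 0.31 against 0.01 over all genes. Arg1, at 1539 to 1897 CPM in normal and 1963 to 2944 CPM in WT vehicle livers, had 0.47 ± 0.13 (adjusted p = 0.0712). Cps1, at 1541 to 2096 and 2134 to 2858 CPM, had 0.43 ± 0.13 (adjusted p = 0.0983). These groups did not overlap in either gene, which is a description only, since the share of all genes without overlap is not given here. At an unadjusted p under 0.05, 5 of the 10 genes passed in edgeR, against 2372 of all 15570 genes tested. DESeq2 called 2 of the 10 (Arg1 and Cps1) and limma-voom with sample weights called 1 (Arg1).

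Against the non-injected normal group, WT PRA showed 5 of the 10 genes higher and 0 lower, where 28.4% of all genes tested were called, 13.5% higher. This comparison shares the normal libraries with WT vehicle against normal and the WT PRA libraries with WT PRA against vehicle. The missing harvest time of the normal group holds here too. Slc25a15 went from 175, 202, 253 and 206 CPM in the normal livers to the WT PRA values given above, a log2 fold change of 1.41 ± 0.16 (2.66-fold, adjusted p = 1.15e-06). Asl, at 536 to 807 CPM in normal livers, rose by 0.94 ± 0.17 (adjusted p = 0.000309). Ass1, at 3042 to 4220 CPM, rose by 0.84 ± 0.18 (adjusted p = 0.00143), Arg1 by 0.82 ± 0.13 (0.000101) and Cps1 by 0.68 ± 0.13 (0.000595). Each of these 5 calls held in every alternative run. None of the 5 overlapped between the groups, again a description only. Nor did Otc, which was not called, at 332.8 to 368.7 CPM in normal and 369.7 to 424.9 CPM in WT PRA livers. Otc (0.21 ± 0.09, adjusted p = 0.0901) and Nags (0.19 ± 0.08, 0.0963) missed the threshold. For Slc25a13 (0.04 ± 0.12), Glul (0.06 ± 0.16) and Gls2 (0.19 ± 0.18) the adjusted p-values were 0.486 to 0.85.

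Sums and ratios within a library show the same levels relative to each other and are given as descriptions. The 5 enzymes Cps1, Otc, Ass1, Asl and Arg1 together held 0.804% ± 0.105 (SD, n = 4) of scaled counts in normal, 1.08% ± 0.205 in WT vehicle and 1.39% ± 0.122 in WT PRA livers. They held 0.885% ± 0.14 in knockout vehicle and 1.31% ± 0.134 (n = 3) in knockout PRA livers. The Slc25a15 to Slc25a13 ratio, the ornithine carrier over the aspartate carrier, was 1.15 to 1.73 in WT vehicle and 3.02 to 3.63 in WT PRA, and 1.07 to 1.32 and 2.26 to 3.08 in the knockout. It did not overlap between treatments in either genotype. The Glul to Gls2 ratio, synthesis over breakdown of glutamine, was 2.02 to 5.94 in WT vehicle and 1.76 to 3.39 in WT PRA, which overlapped. In the knockout it was 2.32 to 5.55 under vehicle and 1.33 to 2.12 under PRA, without overlap.

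**Figure D3:**
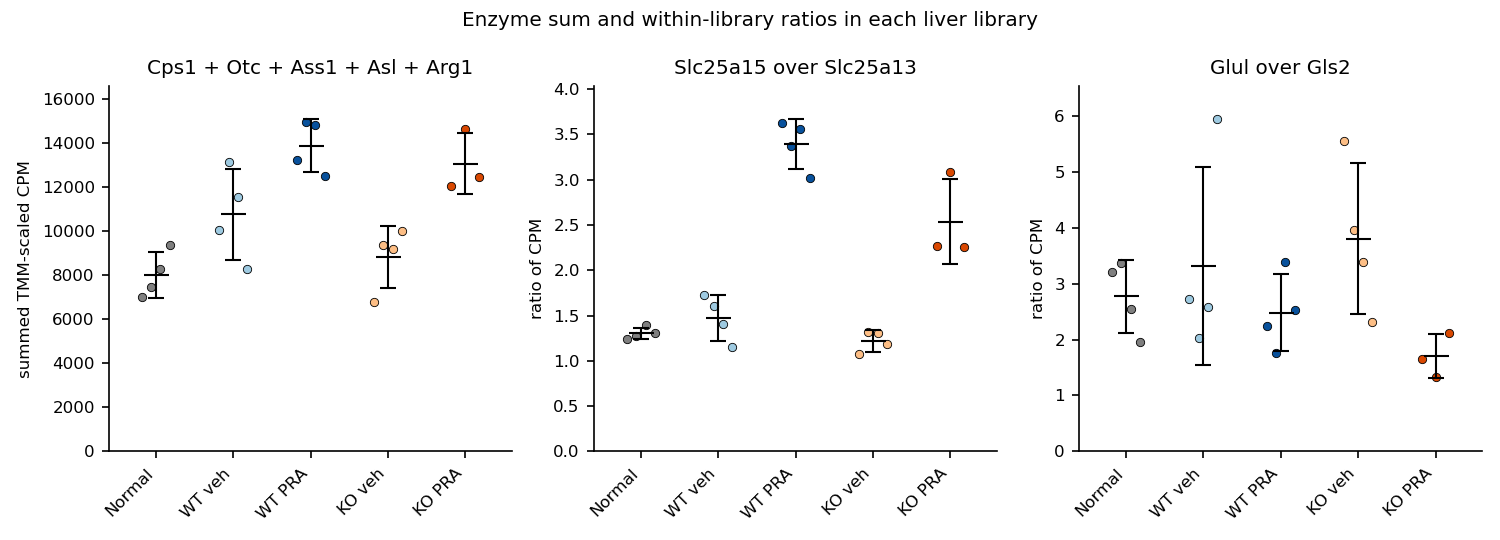
Summed CPM of 5 urea cycle enzymes (left) and the within-library ratios Slc25a15 over Slc25a13 (middle) and Glul over Gls2 (right), by group (x axis), with libraries as points and mean ± SD. The middle ratio lies at 3.02 to 3.63 in WT PRA and at 1.15 to 1.73 in WT vehicle, and the WT vehicle library at 5.94 in the right panel is replicate 4.

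Genes around the cycle were described by lists chosen with earlier results of these data known. Of all genes tested, 9.74% were called higher and 12.3% lower under PRA in WT, and 7.96% and 8.38% in the knockout. The counts of every list below, marker lists included, are to be read beside these shares. Of 15 genes that supply ammonia and bicarbonate, 1 rose and 1 fell in WT and 2 rose in the knockout, with median log2 fold changes of 0.09 and 0.20. Got1, the cytosolic aspartate aminotransferase, was at 431 to 688 CPM in WT vehicle and 977 to 1330 CPM in WT PRA livers, a rise of 1 ± 0.23 (adjusted p = 0.00368). In the knockout Got1 rose by 1.49 ± 0.24 (adjusted p = 0.000333), from 197 to 422 CPM under vehicle to 889 to 1220 CPM under PRA. Gpt2, a mitochondrial alanine aminotransferase, rose in the knockout by 0.73 ± 0.18 (adjusted p = 0.00695) and had 0.36 ± 0.16 (0.122) in WT. Amt, of the glycine cleavage system, fell by 0.29 in WT (SE 0.10, adjusted p = 0.0436), with -0.08 ± 0.11 (0.677) in the knockout. Prodh, the first enzyme of proline breakdown, was called in WT PRA against normal, at 0.72 ± 0.15 (adjusted p = 0.00123), and had 0.26 ± 0.15 (0.228) against vehicle in WT and 0.34 ± 0.16 (0.162) in the knockout.

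Of 14 tested carriers of cycle and glutamine metabolites (of 19 listed), 5 rose in WT and 5 in the knockout, and 0 fell in either; the medians were 0.34 and -0.01. Slc38a2, which takes up glutamine and other neutral amino acids, rose by 2.07 ± 0.17 in WT (4.19-fold, adjusted p = 8.59e-08) and by 1.68 ± 0.18 in the knockout (3.72e-06). It was at 43.2 to 78.7 CPM in WT vehicle and 201 to 266 CPM in WT PRA livers. Slc25a22, a mitochondrial glutamate carrier, rose by 0.89 ± 0.14 in the knockout (adjusted p = 0.000137), with 0.44 ± 0.13 (0.0177) in WT, and was higher in WT vehicle than in normal livers by 0.62 ± 0.13 (0.0126). Slc25a29, a mitochondrial carrier of basic amino acids, rose by 0.74 ± 0.21 in WT (adjusted p = 0.0143) and by 0.92 ± 0.23 in the knockout (0.00803), at 2.67 to 7.65 CPM over these 4 groups. Slc25a12, the sister carrier of Slc25a13, rose by 0.34 ± 0.11 in WT (adjusted p = 0.032) and had 0.31 ± 0.12 (0.0858) in the knockout. Slc7a2, a carrier of cationic amino acids, was called in WT PRA against normal, at 1.09 ± 0.24 (adjusted p = 0.00202), with 0.64 ± 0.23 (0.059) against vehicle in WT and 0.89 ± 0.25 (0.0207) in the knockout.

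Of 11 tested genes that use arginine and ornithine (of 12 listed), 1 rose and 1 fell in WT, and 2 rose and 1 fell in the knockout, with medians of -0.01 and 0.14. Nos3, endothelial nitric oxide synthase, rose by 1.31 ± 0.15 in WT (adjusted p = 1.85e-06) and by 1.54 ± 0.15 in the knockout (9.5e-07), and its level was between 3.7 and 17.4 CPM in these groups. Of 8 sinusoidal endothelial markers, 1 rose and 6 fell in WT and 1 rose and 3 fell in the knockout, with sums of 237 to 340 and 199 to 238 CPM in WT and of 267 to 301 and 207 to 266 CPM in the knockout; their part in the Nos3 values was not tested. Gatm, the first enzyme of creatine synthesis, fell by 0.97 in WT (SE 0.16, adjusted p = 0.000216) and by 1.43 in the knockout (SE 0.18, 1.52e-05), at a level of at most 4.61 CPM. Odc1, the entry enzyme of polyamine synthesis, rose in the knockout by 0.57 ± 0.15 (adjusted p = 0.0136), with 0.23 ± 0.14 (0.263) in WT. Neither of the deacylases listed, Sirt3 and Sirt5, passed the test in either genotype.

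Of 10 transcription factors and receptors known to act on urea cycle genes, 3 rose and 3 fell in WT, and 4 rose and 0 fell in the knockout; the medians were -0.07 and -0.14. Cebpb was at 153 to 191 CPM in WT vehicle and 608 to 662 CPM in WT PRA livers, a rise of 1.86 ± 0.10 (adjusted p = 1.8e-10), and it rose by 1.59 ± 0.11 in the knockout (9e-09). Its level under PRA was lower in the knockout than in WT by 0.54 on the log2 scale (SE 0.11, adjusted p = 0.00563). Cebpa fell by 0.60 in WT (SE 0.12, adjusted p = 0.001), with -0.38 ± 0.13 (0.0502) in the knockout. Klf15, a factor of amino acid breakdown, rose by 0.79 ± 0.18 in WT (adjusted p = 0.00301) and 0.89 ± 0.19 in the knockout (0.00259). Hnf4a, a main hepatocyte factor, rose by 0.57 ± 0.13 in WT (adjusted p = 0.00318) and by 0.72 ± 0.14 in the knockout (0.00115). The interaction test called none of the genes of these 5 lists by edgeR, where only 0.475% of all genes tested were called.

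**Figure D4:**
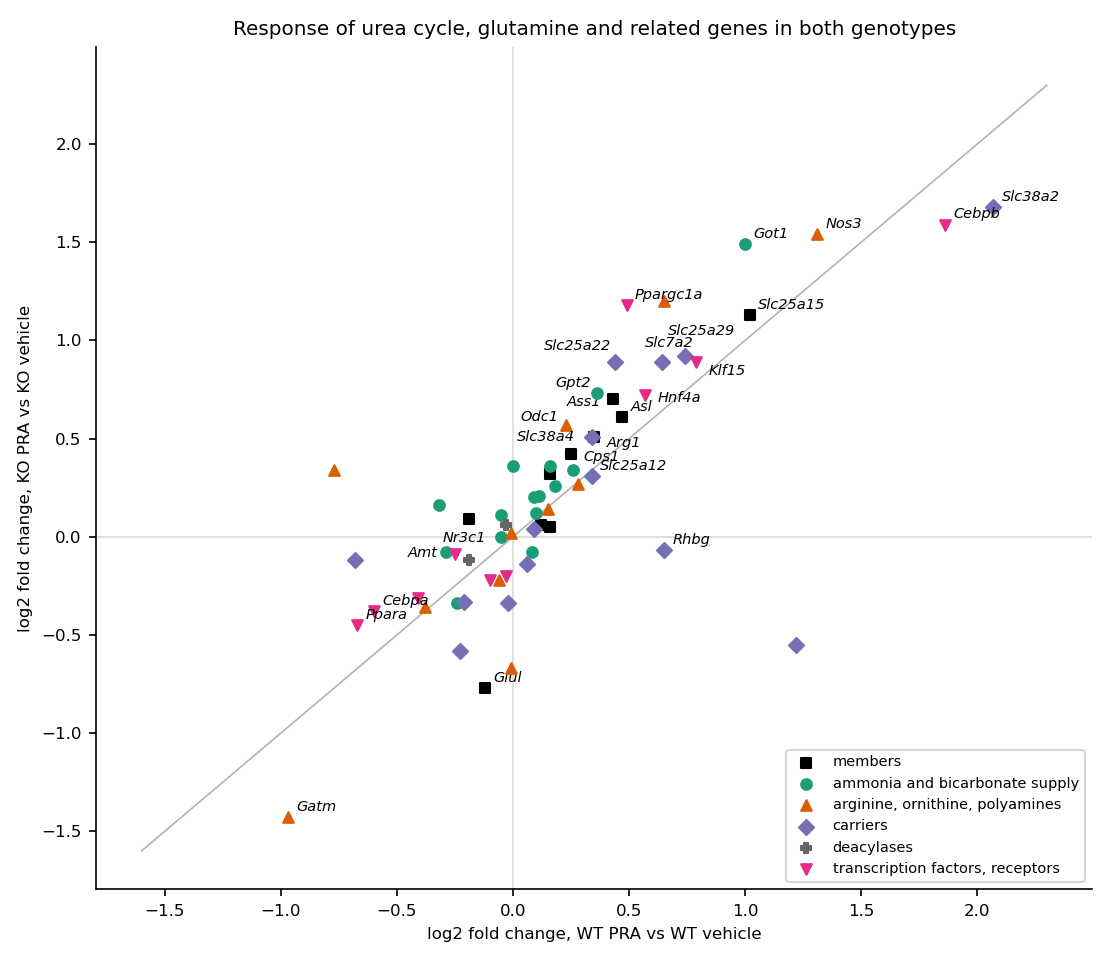
Log2 fold change under PRA in WT (x axis) and in the knockout (y axis) for the 10 genes (squares) and the 5 lists around them, with the line of equal change; genes called in at least 1 genotype are named. Slc38a2 and Cebpb lie farthest up (2.07 and 1.68, and 1.86 and 1.59), and Glul lies below the line at -0.12 and -0.77.

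The zones of the liver lobule were followed by marker lists, since the urea cycle lies mainly near the portal vein and Glul around the central vein. Periportal markers summed to 5420 to 7320 CPM in WT vehicle and 8940 to 9710 CPM in WT PRA, and to 5390 to 8140 and 9860 to 10800 CPM in the knockout. Of the 10, 2 rose, 0 fell and 8 were not called in each genotype, with median log2 fold changes of 0.17 in WT and 0.16 in the knockout. Both that rose were enzymes of amino acid use and glucose synthesis, Sds (1.53 ± 0.34 in WT, adjusted p = 0.00438) and Pck1 (0.61 ± 0.20 in WT, 0.0356). Of 14 pericentral markers, 1 rose and 4 fell in WT and 1 rose and 5 fell in the knockout, while their summed level overlapped between vehicle and PRA in both (6350 to 12300 and 10300 to 11500 CPM in WT, 7590 to 9490 and 8640 to 10400 CPM in the knockout). Of the 14, 9 were not called in WT and 8 in the knockout, and the median log2 fold changes were -0.32 and -0.08. As examples only, among those that fell were Nkd1 (-0.80 ± 0.13 in WT, adjusted p = 9.99e-05) and Notum (-0.86 ± 0.12, 2.63e-05). In the knockout they were at -0.89 ± 0.14 (adjusted p = 0.00013) and -1.02 ± 0.13 (1.99e-05). The values of the other pericentral markers, of which 1 rose in each genotype, are not given here. Hepatocyte markers, of which 5 of 6 were matched, summed to 68400 to 91400 CPM in WT vehicle and 87800 to 95600 CPM in WT PRA, and to 92000 to 96700 and 101000 to 138000 CPM in the knockout. The part of zone and cell makeup in the changes of the 10 genes was not tested.

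The genes whose pattern over the 19 libraries was most like that of a called gene were found by the root mean square difference of centred log2 CPM among 10497 candidates. For Slc25a15 they were C9orf72 (0.18), Aass (0.18) and Crybg1 (0.19), against an SD of 0.64 of Slc25a15 itself. For Cps1 they were Sfxn1 (0.10), N4bp2 (0.12) and Nucks1 (0.13). For Asl they were Crcp (0.14), Slc37a4 (0.15) and Ass1 (0.16), and Crcp is the gene next to Asl in the RefSeq annotation of GRCm38.p6. For Arg1 they were Tango2 (0.14), Hpd (0.15) and Ass1 (0.16). For Ass1 they were the pseudogene Gm5424 (0.13), Asl (0.16) and Arg1 (0.16). For Glul they were Esrp2 (0.19), Slc25a42 (0.19) and Ybey (0.20), against its own SD of 0.32.

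Near-identical copies and overlapping genes could take reads from some of the 10. Gm5424, a processed pseudogene, is 99.5% identical to the Ass1 transcript over 1240 bp and had at most 0.442% of the Ass1 count in any library. Glns-ps1 is 96.8% identical to Glul over 1126 bp and had 4 to 24 counts. Other processed pseudogenes matched Glul at 93% over 1122 bp and at 87.3% over 1148 bp. Their counts are not given here and were not added to Glul. With the counts of Gm5424 and Glns-ps1 added to their parent genes, the same number of the 10 genes was called in each comparison. So few added counts could hardly change a call, and the part of reads that match both copies was not tested. In GENCODE, Gm11586 lies opposite Nags, Teddm2 opposite Glul and Spryd4 opposite Gls2; without a stated strand setting their reads cannot be told apart where they overlap.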

How the data were processed

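The authors deposited raw counts per gene for 19 liver libraries, in 1 table for the series and again in 1 file per library. Per the submitters' processing notes, the tools were HISAT2 2.2.1, SAMtools 1.13 and HTSeq 0.11.3, and the build was GRCm39. Neither the annotation release nor the strand setting used in counting is given in the sources used here. Groups and replicate numbers came from the sample titles. Lines that name no gene were left out. Gene names came from a table that matched 52083 of 55416 gene lines. Lengths, overlaps and copies came from GENCODE on GRCm38, promoters from RefSeq on GRCm38.p6; no coordinate of the files was used.

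In R 4.3.3, edgeR 4.0.16 kept 15570 genes by filterByExpr, scaled libraries by TMM and fitted 1 robust quasi-likelihood model, a mean for each group, to all 19 libraries. There were 7 contrasts, each adjusted by Benjamini-Hochberg over all genes tested, with a threshold of 0.05. Levels are CPM, as each library's value or mean ± SD, and the SE of a log2 fold change is its size over the root of F. Statements on overlap of CPM between groups are descriptions, as the share of all genes without overlap is not given. The procedure was tested on simulated data. Alternatives were RLE and upper quartile scaling, 2 other filters, DESeq2 1.42.0, limma-voom 3.58.1 with sample quality weights (both the tool and the weighting differ there), a replicate block, fits to the compared groups alone, each library left out, and, added after seeing the data, pseudogene counts joined to Ass1 and Glul.

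The 10 genes and the lists around them were chosen with earlier results of these data known. All 10 are counted in every contrast. From the lists around the cycle, up to 3 called genes per list and contrast are named, by smallest p and without overlap of CPM, with their values under PRA in the other genotype; values against normal are given for genes this rule names nowhere else and for vehicle injection. For each gene called under PRA, the 3 genes of at least 2 CPM most like it are given. Depth was 32073865 to 74041441 gene counts per library, and no pair of replicates agreed within sampling noise.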

Additional observations from a re-analysis of the deposited data

Results flagged for a closer look

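In 3 of 48 groups of 4 libraries (the 10 genes, the Glul to Gls2 ratio and the sum of 5 enzymes), 1 library lay far from the other 3 by Dixon's 95% critical value; chance gives about 1 in 20. Otc was at 368.7 CPM in normal replicate 4, against 332.8 to 338.1 in the other normal libraries. Otc was at 419.7 CPM in knockout vehicle replicate 4, against 352.4 to 359.9 in the others. Glul was at 1482 CPM in WT vehicle replicate 4, against 1043 to 1093 in the others.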

How the results depend on the processing

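Of the 13 fold changes called by edgeR, 190 of 215 values under the alternatives stayed past the threshold in the same direction, 25 kept the direction but missed it and 0 changed direction; of 1025 values of the 57 fold changes not called, 14 passed the threshold and 33 had the opposite sign without passing. The lost calls were those of Asl in WT and of Cps1, Ass1, Asl and Arg1 in the knockout; the cause was not tested.

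In WT PRA against vehicle, 1 member gene was called with upper quartile scaling, without a filter, with 1 CPM required in 3 libraries and with weighted limma-voom (tool and sample weights changed together), since Asl then had an adjusted p of 0.0811, 0.0862, 0.0501 and 0.0852; without 1 library, 1 to 3 were called. Arg1 passed there with DESeq2 (adjusted p = 0.0318) and without WT vehicle replicate 2 or 3, and Ass1 without WT vehicle replicate 2 (0.0217). In the knockout, 2 to 6 genes were called without 1 library, and Cps1 missed the threshold with upper quartile scaling (0.0857), weighted limma-voom (0.0534) and the 2 groups fitted alone (0.0942). In WT vehicle against normal, 2 were called with DESeq2, 1 with weighted limma-voom and 0 to 1 without 1 library (Arg1, without WT vehicle replicate 4). In WT PRA against normal, Otc and Nags passed in some alternatives (Otc with DESeq2, weighted limma-voom and the 2 groups alone, Nags with weighted limma-voom and the 2 groups alone).

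Over all genes, WT vehicle against normal called 311 genes, with DESeq2 656, with weighted limma-voom 648, with its groups alone 154, and 128 to 299 without 1 library. The interaction called 74, with DESeq2 172, and 37 to 95 without 1 library. Knockout against WT called 591 under PRA, with DESeq2 919, and 314 to 489 without 1 library; under vehicle it called 11, with DESeq2 56, with weighted limma-voom 21, with its groups alone 7, and 2 to 15 without 1 library. Knockout PRA against vehicle called 2544, and 1671 to 2499 without 1 library, the lowest without knockout PRA replicate 2.

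All changes of sign were in values not called. Upper quartile scaling gave -0.01 for Otc and Nags in knockout PRA against vehicle and -0.02 for Slc25a13 in WT PRA against normal. With weighted limma-voom, Otc was at -0.01 and Nags at 0 in knockout against WT vehicle. Without 1 library, WT PRA against vehicle gave -0.31 to 0.02 for Glul and -0.01 to 0.31 for Gls2. Knockout PRA against vehicle gave -0.01 to 0.12 for Otc, -0.01 to 0.11 for Nags and -0.05 to 0.18 for Slc25a13. The interaction gave -0.12 to 0.01 for Otc, -0.02 to 0.26 for Asl and -0.01 to 0.24 for Slc25a15. Knockout against WT gave, under PRA, -0.15 to 0.03 for Cps1, -0.11 to 0.02 for Otc, -0.12 to 0.04 for Arg1, -0.11 to 0.01 for Nags and 0 to 0.21 for Slc25a13, and under vehicle -0.05 to 0.07 for Otc and -0.26 to 0.07 for Gls2. Against normal, WT vehicle gave 0 to 0.08 for Nags and -0.13 to 0.19 for Gls2, and WT PRA -0.02 to 0.11 for Slc25a13 and -0.13 to 0.14 for Glul.

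Whether the replicate numbers pair the samples was not settled, since no value for unpaired numbers is given beside the correlations. Over 36 pairs with the same number in different groups, the correlation of deviations was -0.52 to 0.36, and 11 were over 0.1. Between vehicle and PRA it was 0.01 to 0.22 in WT and -0.3 to 0.33 in the knockout. Of 19 libraries, 8 correlated best with their own number. With the replicate block, 3 members were called in WT PRA against vehicle (Arg1 joined, adjusted p = 0.0405) and 6 in the knockout, over 3204 and 2175 genes called, and the other counts of members did not change.

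With 3 to 4 libraries a group, the SE of the fold changes was 0.08 to 0.27 on the log2 scale, the smallest difference called was 0.42 (Cps1 in the knockout), and the largest that missed the threshold was -0.65 (Glul in the interaction). No member had under 2200 counts in a library, so counting error was small beside this spread.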
